A study of Drosophila melanogaster with 6 samples.

Results

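Mitochondrial ribosomal protein genes were taken as the genes whose symbol begins with mRpL or mRpS. Their sites were the listed truncation and C-to-T sites that carried such a gene name. Of 73 annotated genes with these symbols, 47 mRpL genes and 26 mRpS genes, 29 had a truncation site and 1 had a C-to-T site. They held 46 of the 22917 listed truncation sites and 1 of the 6225 listed C-to-T sites. The subunit is given by symbol alone throughout, mRpL for the large and mRpS for the small. The genes were chosen by name and not by any measured value, though with earlier results of these data known.

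The sites came from miCLIP, a method in which an antibody to N6-methyladenosine (m6A) is crosslinked to fragmented mRNA. The crosslinked residue leaves a C-to-T change in the cDNA or stops reverse transcription, which gives a truncation. The groups were 4 replicate m6A immunoprecipitations (IPs), 1 IP without crosslinking and 1 input library of fragmented mRNA, made without antibody and with another library kit. All 6 samples were poly(A) RNA from untreated S2R+ cells, a cultured Drosophila line of haemocyte-like character, and whether the replicates were separate cultures is not stated. Of 9 haemocyte markers, srp, Pxn, crq, ush and vkg had a truncation site (55.6%, beside 27.6% of all nuclear protein-coding genes). That of vkg was 1 site in 2 IPs. Hml, NimC1, He and Col4a1 had none, and a site list cannot show that an mRNA is absent.

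The values are the authors' and are combined over the IPs that share a site, between 2 and 4 of them. A site therefore has no replicate spread, and no difference below was tested. The peak height, PH, is the height that the CTK toolkit gives a truncation site. It is averaged here over those of the authors' 3 aligners that gave the site. Its null value, PH0, is the height CTK sets for background. Intervals on shares are 95% Wilson intervals. They cover counting error only and treat sites of the same gene as independent. Tag depth is known only at C-to-T sites.

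Mitochondrial ribosomes translate the few mRNAs encoded by mitochondrial DNA, which specify core subunits of the respiratory chain. Their proteins are encoded in the nucleus, translated in the cytoplasm and imported. Some, such as mRpL3, mRpL16 and mRpS7, descend from bacterial ribosomal proteins, and others, such as mRpL45, mRpS22 and mRpS34, have no bacterial counterpart. In fly mRNAs, m6A is deposited by a nuclear writer complex and is read by YTH domain proteins.

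A truncation site was found in 39.7% of the mitochondrial ribosomal protein genes (29.3% to 51.2%), beside 27.6% of all nuclear protein-coding genes. The share was 60.7% in nuclear oxidative phosphorylation genes and 95.3% in cytoplasmic ribosomal protein genes, both above that of the mitochondrial ribosomal protein genes. With sites in 3 or 4 IPs the count was 17 genes, 23.3% of the 73, beside 21.6% of all genes. With sites in all 4 IPs it was 8 genes, 10.96% of the 73 (5.66% to 20.2%), beside 15.3%. Of the 29 genes, 12 had sites in 2 IPs only, and at 3 or more IPs the share of genes lay near that of all genes. By subunit, 17 of 47 mRpL genes (36.2%, 24.0% to 50.5%) and 12 of 26 mRpS genes (46.2%, 28.8% to 64.5%) had a site, and the intervals overlapped. Most had very few: 19 genes had 1 site, 6 had 2, 1 had 3 and 3 had 4. The median was 1 site per gene with a site, against 3 in other nuclear protein-coding genes. mRNA abundance is not given by site lists, so the genes without a site cannot be told apart from genes with too few tags.

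In the large subunit they were mRpL3, mRpL10, mRpL12, mRpL14, mRpL16, mRpL20, mRpL22, mRpL23, mRpL28, mRpL30, mRpL32, mRpL36, mRpL40, mRpL45, mRpL46, mRpL51 and mRpL52. In the small subunit they were mRpS5, mRpS7, mRpS14, mRpS17, mRpS18A, mRpS22, mRpS24, mRpS25, mRpS26, mRpS28, mRpS31 and mRpS34. Although its symbol places it with the small subunit, the human protein that corresponds to mRpS18A sits in the large one. The other 44 had no site in either list, and were mRpL1, mRpL2, mRpL4, mRpL9, mRpL11, mRpL13, mRpL15, mRpL17, mRpL18, mRpL19, mRpL21, mRpL24, mRpL27, mRpL33, mRpL34, mRpL35, mRpL37, mRpL38, mRpL39, mRpL41, mRpL42, mRpL43, mRpL44, mRpL47, mRpL48, mRpL49, mRpL50, mRpL53, mRpL54, mRpL55, mRpS2, mRpS6, mRpS9, mRpS10, mRpS11, mRpS16, mRpS18B, mRpS18C, mRpS21, mRpS23, mRpS29, mRpS30, mRpS33 and mRpS35. The annotated mRNA had a median length of 716 nt in genes with a site and 792 nt in genes without, and the coding sequence 585 nt and 574.5 nt.

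**Figure D1:**
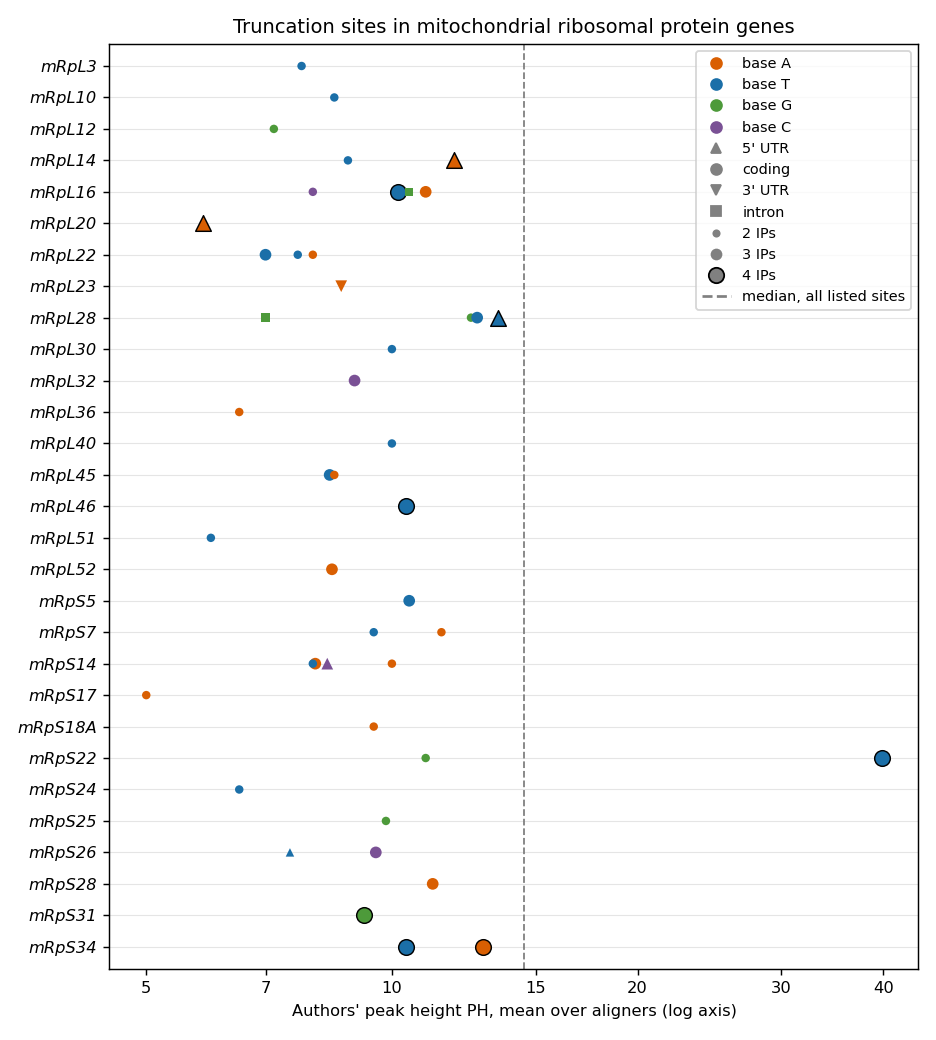
Authors' peak height of each of the 46 truncation sites (log axis, mean over aligners), one line per gene; colour gives the base, shape the transcript part, and size and outline the number of IPs. Of the 46 sites, 45 lie left of the dashed line at 14.5, the median of all listed sites, and the T of mRpS22 stands alone at 39.8.

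One site stood apart in height. mRpS22 encodes a small-subunit protein without a bacterial counterpart whose human form is mutated in mitochondrial translation deficiency. Its mRNA had a truncation at T at chromosome 3R, 27917626, plus strand, in the coding sequence of its single exon, 624 nt downstream of the first base of the start codon. The peak height there was 42 with Novoalign, 41.75 with STAR and 35.75 with BWA, a mean of 39.8, and all 4 IPs shared the site. Of all listed truncations 89.5% were lower, and of all coding truncations at T 92.6%. The second site of mRpS22, a G at 27917368, was of ordinary height at 11 and was found in 2 IPs. No other gene with an mRpL or mRpS symbol had a site that reached 15.

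Among small-subunit genes, mRpS34 came next. Its product is another protein found in mitochondrial but not bacterial ribosomes. Both of its sites, in the coding sequence of its single exon on chromosome 3L, plus strand, were shared by 4 IPs. The first was an A at 16348207, 40 nt downstream of the first base of the start codon, with a height of 12.9. The second was a T at 16348729, 4 nt before the end of the stop codon, with a height of 10.4. mRpS31, also specific to mitochondria, had a single site in 4 IPs, a G at chromosome 3L, 16006250, in its coding sequence, with a height of 9.25. These 4 sites of mRpS22, mRpS34 and mRpS31 were the only small-subunit sites seen in every IP, and just 1 of them was at A.

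mRpS14, related to a bacterial protein of the subunit head, had 4 sites on chromosome X, minus strand, the most of any small-subunit gene. They were a C at 19479910 in the 5' UTR, 34 nt before the start codon, and in the coding sequence an A at 19479858, a T at 19479732 and an A at 19479639. Heights were 8.33, 8.06, 8 and 10, and none was in more than 3 IPs. In mRpS26, also specific to mitochondria, a T at chromosome 3L, 18106658, lay 4 nt before the start codon (height 7.5, 2 IPs), and a C at 18107235 lay in the coding sequence (9.56, 3 IPs). mRpS7 is related to a bacterial protein that starts the assembly of the subunit head. It had a T and an A near the stop codon, at chromosome 2L, 10387460 and 10387469, with heights of 9.5 and 11.5, each in 2 IPs. The other 6 small-subunit genes had 1 site each, all in the coding sequence. They were at A in mRpS17, mRpS18A and mRpS28, at T in mRpS5 and mRpS24 and at G in mRpS25, with heights from 5 in mRpS17 to 11.2 in mRpS28.

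Large-subunit sites were low throughout, with heights from 5.86 to 13.5 and a median of 8.5, against a median of 9.56 in small-subunit genes. mRpL28 had the tallest of them. Its 5' UTR site, a T at chromosome 2L, 4974091, plus strand, 46 nt before the start codon, had a height of 13.5 and was shared by 4 IPs. In the coding sequence of the same mRNA a G at 4974360 had a height of 12.5 in 2 IPs, and a T at 4974403 had 12.7 in 3 IPs. mRpL16, related to a bacterial protein near the site where tRNA enters, had 3 coding sites in exon 3 of 3 on chromosome X, plus strand. A C at 1890824 had a height of 8 in 2 IPs, a T at 1890851 had 10.2 in 4 IPs and an A at 1891090 had 11 in 3 IPs.

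mRpL14 and mRpL20, both related to bacterial large-subunit proteins, carried the only 5' UTR truncations at A. In mRpL14 it lay at chromosome X, 2344573, minus strand, 38 nt before the start codon, with a height of 11.9. In mRpL20 it lay at chromosome 3L, 13017805, minus strand, 43 nt before the start codon, with a height of 5.86, with only 1.597% of the list below it, yet it too was shared by 4 IPs. mRpL14 had a second site, a coding T at 2344405 (height 8.83, 2 IPs). mRpL22, related to a bacterial protein lining the exit tunnel, had 3 coding sites with heights from 7 to 8, an A at chromosome X, 16784143, and a T each at 16784418 and 16784448. mRpL45, which in human cells helps hold the ribosome at the inner membrane, had a coding T at chromosome 3R, 22618991 (8.39, 3 IPs) and a coding A at 22619522 (8.5, 2 IPs). mRpL46, a protein without a bacterial counterpart, had a coding T at chromosome 3L, 1778074, in 4 IPs with a height of 10.4.

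The other 10 large-subunit genes with a site had 1 each, and none of those was in 4 IPs. mRpL23 held the only 3' UTR site, an A at chromosome 3L, 2372862, with a height of 8.67 in 3 IPs, 47 nt past the stop codon. The rest were coding. mRpL12, a protein of the stalk that contacts translation factors and in flies is needed for growth driven by cyclin D, had a G with a height of 7.17. mRpL3, related to a bacterial protein close to the peptidyl transferase centre, had a T with a height of 7.75. Of the others, mRpL10 (8.5), mRpL30 (10), mRpL40 (10) and mRpL51 (6) had a T, mRpL36 (6.5) and mRpL52 (8.44) an A and mRpL32 (9) a C, with the heights in brackets.

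**Figure D2:**
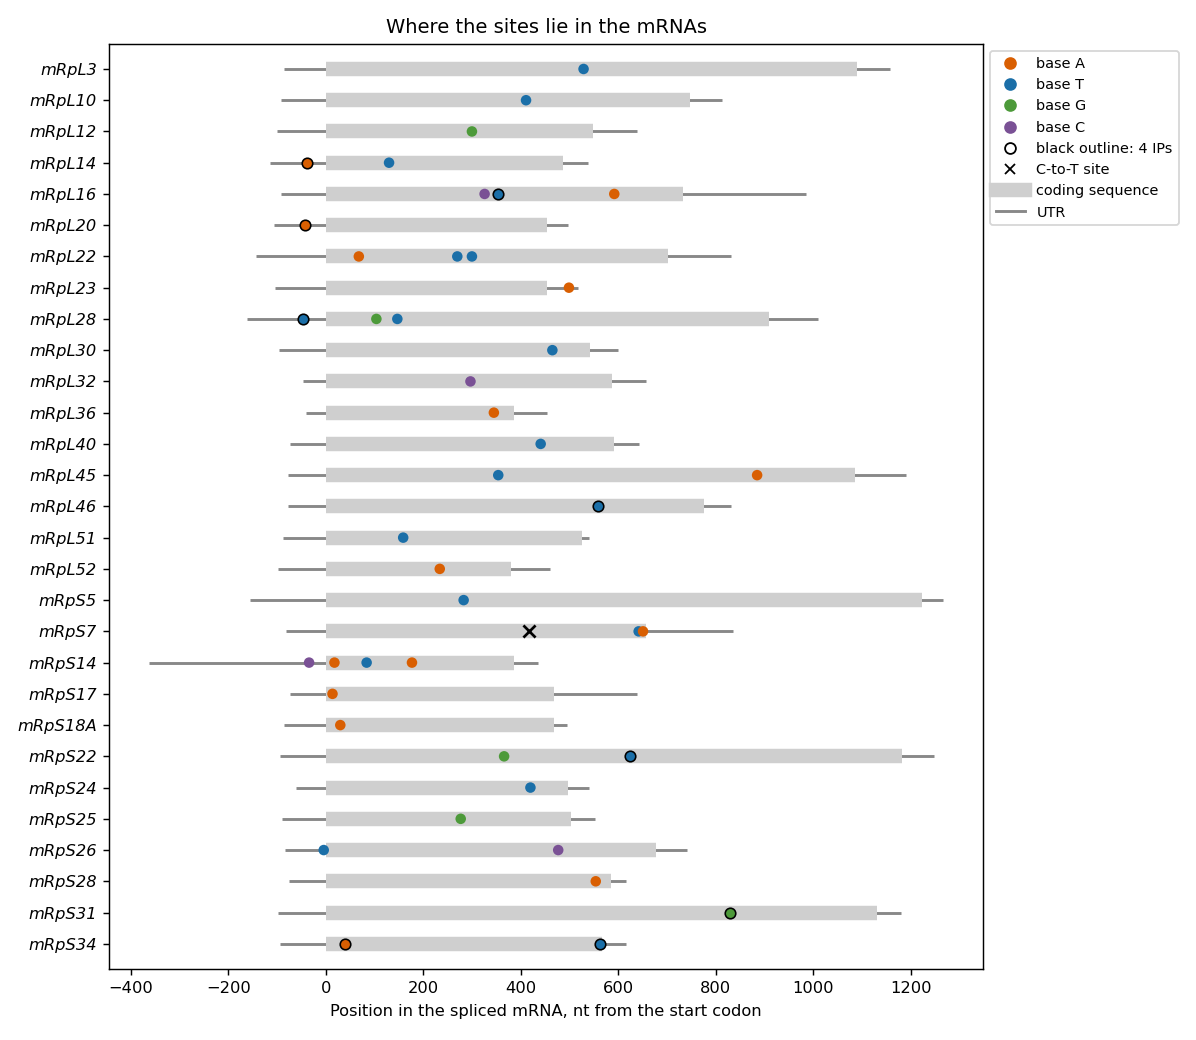
Sites on the spliced mRNA of each gene with a site, in nt from the start codon, on the transcript with the longest coding sequence; the 2 intronic sites are not drawn. Dots are truncations coloured by base, black outlines mark 4 IPs and the cross is the C-to-T site of mRpS7, which has no truncation beside it.

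In peak height as deposited, the mitochondrial ribosomal protein genes lay at the low end of the list. The median was 9.12 (quartiles 8 and 10.5; range 5 to 39.8) over 46 sites, against 44.1 in cytoplasmic ribosomal protein genes (1079 sites), 14 in nuclear oxidative phosphorylation genes (245 sites) and 14.7 in all other nuclear protein-coding genes (21148 sites), which include both of these sets. Heights under 10 made up 60.9% of their sites, against 23.1% of the whole list. The gap was also present among sites shared by the same number of IPs. In 2 IPs the median was 8.5 against 11.5 in other genes, in 3 IPs 8.83 against 14.6, and in 4 IPs 10.4 against 23.9. PH0 moved with it, with a median of 0.473 in mitochondrial ribosomal protein genes, 7.23 in cytoplasmic ribosomal protein genes, 1.08 in oxidative phosphorylation genes and 0.948 in other genes. Its part in the difference was not tested. Divided by PH0, the height had a median ratio of 21.0 in mitochondrial ribosomal protein genes and 6.91 in cytoplasmic ribosomal protein genes. It was 12.8 in oxidative phosphorylation genes and 16.5 in other genes. Other genes with 1 to 4 truncations and none of height 15 or more had a median height of 8.83. The bound of 15 itself keeps the heights of these genes low, so this median is no separate comparison of height. Their median PH0 was 0.3425 and their median ratio 25.5, above that of the mitochondrial ribosomal protein genes. The deposited legend does not say how heights from several IPs were merged.

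**Figure D3:**
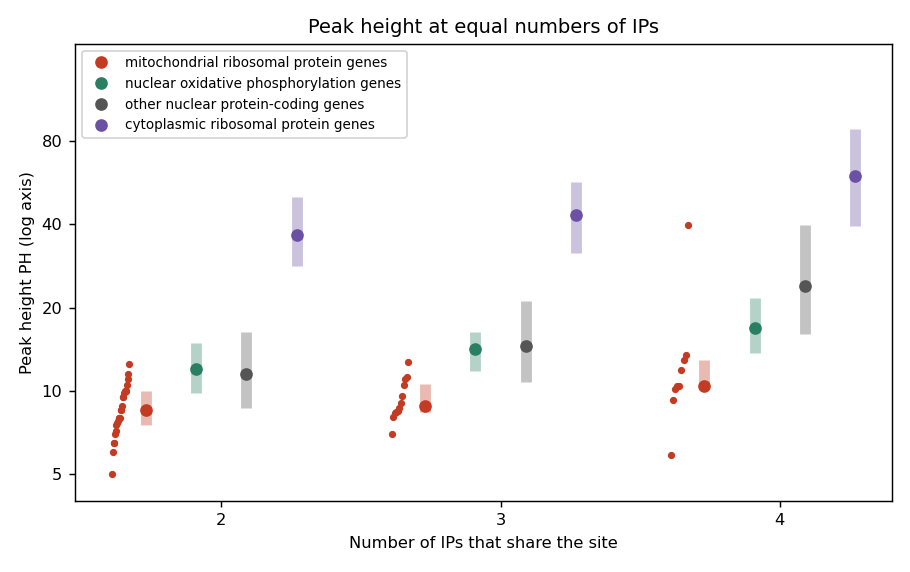
Peak height (log axis) of truncation sites by the number of IPs that share them; large dots are medians and bars quartiles, and small red dots are the single sites of mitochondrial ribosomal protein genes. At 2, 3 and 4 IPs their medians are 8.5, 8.83 and 10.4, against 11.5, 14.6 and 23.9 in other nuclear protein-coding genes.

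The sites lay mainly in coding sequence. By the authors' labels 38 of 46 were coding (82.6%, 69.3% to 90.9%), 5 were in a 5' UTR (10.9%, 4.73% to 23.04%), 1 in a 3' UTR and 2 in introns, and the Ensembl annotation placed all 46 in the same part. In other nuclear protein-coding genes 40.2% of truncations were coding and 36.3% in a 5' UTR. Cytoplasmic ribosomal protein genes had 58.0% and 16.7%, and oxidative phosphorylation genes 56.7% and 13.9%. Coding sequence also makes up much of these mRNAs, with a median of 579 nt of coding sequence, 86 nt of 5' UTR and 65 nt of 3' UTR in mitochondrial ribosomal protein genes. Across all nuclear protein-coding genes the medians were 1179, 120 and 195 nt.

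Set against length, 5' UTRs held 0.771 times the exonic sites expected (5 sites, 11.4% of exonic sites against 14.7% expected). Coding sequence held 1.15 times and 3' UTRs 0.227 times (1 site). The expected 14.7% is not the 5' UTR share of the summed length of these mRNAs, which was 12.3%. The 5' UTR share of sites lay closer to 12.3%, which its interval also held. The ratios for 5' UTRs were 1.15 in cytoplasmic ribosomal protein genes, 0.890 in oxidative phosphorylation genes and 2.32 in other genes. In the 1799 other genes with 1 to 4 truncations and none of height 15 or more (few low sites), 27.3% of 3123 sites were in a 5' UTR. Of the 29 mitochondrial ribosomal protein genes with a truncation, 28 met the same bounds. mRpS22 did not, and its sites are kept in the shares of those genes. Over the 1717 of them with exonic sites the ratio was 2.13, with 29.4% of 2894 exonic sites in a 5' UTR and 13.8% by length. Coding ratios were 1.11 in cytoplasmic ribosomal protein genes, 1.08 in oxidative phosphorylation genes and 0.759 in other genes. For 3' UTRs the ratio was below 1 in all of these sets, at 0.670, 0.887 and 0.650, and at 0.697 in other genes with few low sites. The 5' UTR ratio of the mitochondrial ribosomal protein genes rests on 5 sites. With the coding sequence divided into 5 equal stretches, these held 7, 7, 10, 5 and 9 sites from start to stop, and the median position was at 49.7% of its length. Truncations were mostly isolated: 8 sites had another within 50 nt, such as those 27 nt apart in mRpL16 and 9 nt apart in mRpS7, and 0 had one within 3 nt. Within 50 nt of the start codon lay 9 sites, and within 50 nt of the stop codon 6.

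Over both subunits T was found at 20 of 46 sites (43.5%, 30.2% to 57.7%), A at 15 (32.6%, 20.9% to 47.0%), G at 7 (15.2%) and C at 4 (8.70%). The intervals of A and T overlap. In mRpL genes T had 13 of 27 sites and A had 8, whereas in mRpS genes each had 7 of 19. Among coding sites T had 12 and A 5 of 21 in mRpL genes, and T had 6 and A 7 of 17 in mRpS genes. In other nuclear protein-coding genes A stood at 52.2% and T at 32.1% of truncations, and in other genes with few low sites A stood at 51.1%. The share of A was 33.2% in cytoplasmic ribosomal protein genes and 34.3% in oxidative phosphorylation genes. Transcript part moved with this: 72.4% of 5' UTR truncations in other genes were at A, against 37.5% of coding ones. Within coding sequence the mitochondrial ribosomal protein genes had A at 12 of 38 sites (31.6%, 19.1% to 47.5%) and T at 18 (47.4%, 32.5% to 62.7%), and the shares of other genes, 37.5% and 40.9%, lay within both intervals. In 5' UTRs A and T had 2 sites each and C had 1. The base composition of the mRNAs was not used here.

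Heights differed little between bases. The median was 8.67 at A, 9.17 at T, 9.83 at G and 8.67 at C. In other genes it was 16 at A and 13.5 at T. Of the 9 sites in 4 IPs, 5 were at T, 3 at A and 1 at G. In other genes A made up 65.4% of sites in 4 IPs, just above the interval of the mitochondrial ribosomal protein genes (12.1% to 64.6%), but in other genes with few low sites the share was 62.2%, within it. In 4 IPs A made up 35.9% of sites in cytoplasmic ribosomal protein genes and 39.4% in oxidative phosphorylation genes. Among coding sites in 3 or 4 IPs, A stood at 5 of 16 in mitochondrial ribosomal protein genes (31.2%, 14.2% to 55.6%) and at 39.8% in other genes. Sites at A were found in 14 of the 29 genes and sites at T in 18, with both in 7.

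**Figure D4:**
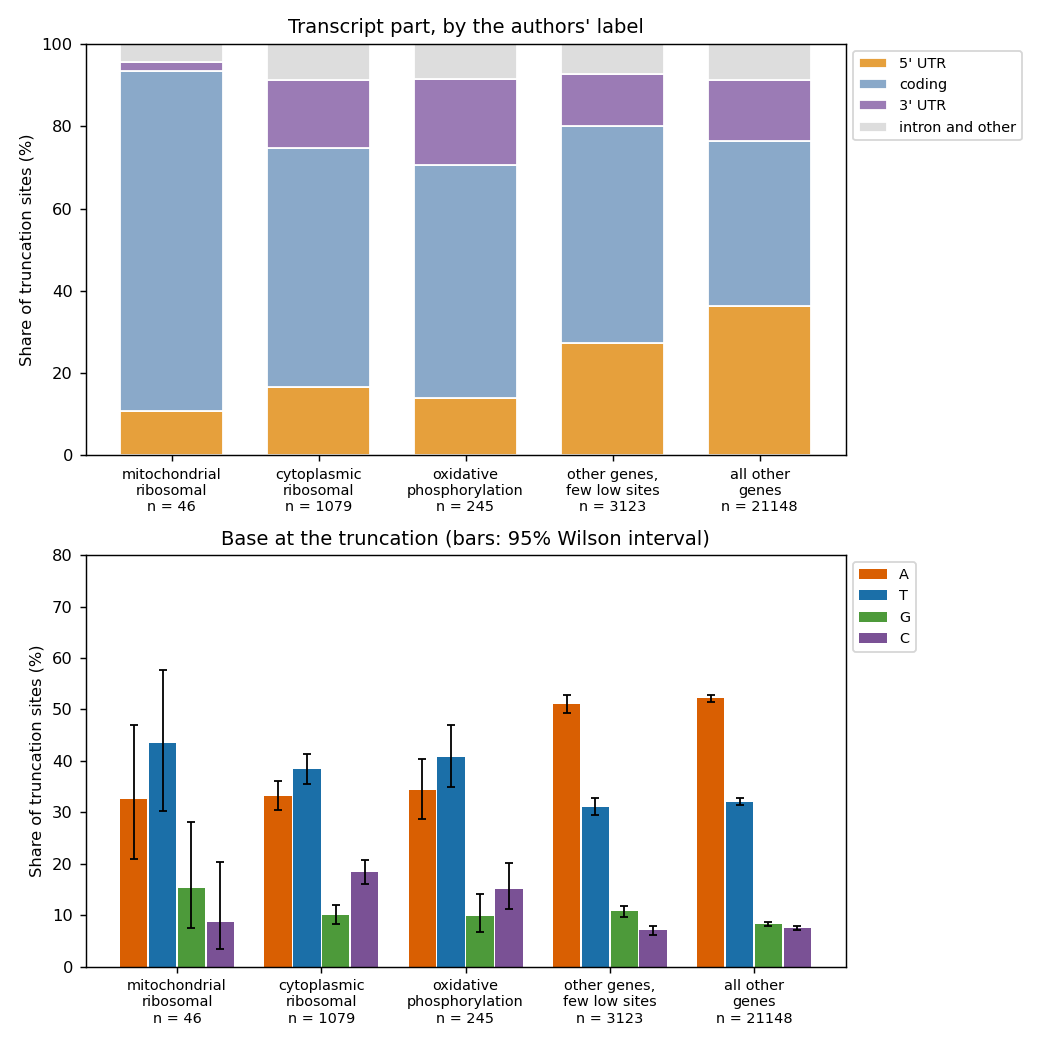
Transcript part (top, stacked shares) and base at the truncation (bottom, bars with 95% Wilson intervals) in 5 sets of truncation sites; other genes with few low sites have 1 to 4 truncations, none of height 15 or more. Mitochondrial ribosomal protein genes have 82.6% coding sites and 32.6% at A, against 40.2% and 52.2% in all other nuclear protein-coding genes.

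C-to-T sites were almost lacking. The sole one was in mRpS7, at chromosome 2L, 10387235, plus strand, in the coding sequence of exon 2 of 2, 417 nt downstream of the first base of the start codon. It was found with Novoalign and BWA and shared by 3 IPs. A mean of 36.5 unique tags covered it, of which 4.67 carried the change, and the authors' percentage was 12.9%. The combined Novoalign values, multiplied here by the 3 IPs and rounded, came to 14 converted tags of 110 (12.7%, 7.73% to 20.2%). This takes the combined values as means over the IPs, and the interval treats tags of different IPs as independent. The authors' percentage was above 96% of the list, whose median was 3.43%. The coverage of the site was above only 1.51% of the list, whose median was 274 tags. Its converted tags were above only 2.715% of the list, whose median was 8.17 and lowest value 3.5. At 36.5 tags even 3.5 converted tags make a percentage above the list median. The high rank of the percentage is therefore tied to the low coverage. The nearest truncation lay 225 nt away, so the site had no truncation directly upstream and none within 10 nt.

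A C-to-T site was thus found in 1 gene of 73 (1.37%, 0.242% to 7.36%), beside 9.31% of all nuclear protein-coding genes. They were found in 90.6% of cytoplasmic ribosomal protein genes and in 7.87% of oxidative phosphorylation genes. No mRpL gene had one, and 28 of the 29 genes with a truncation had none.

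Among genes with a truncation, 3.45% of mitochondrial ribosomal protein genes (0.611% to 17.2%) and 33.9% of other genes had a C-to-T site. Genes with low truncations seldom had one in either set. Where the tallest truncation was under 10, the counts were 0 of 17 and 15 of 1071 other genes (1.40%). From 10 to under 15 they were 1 of 11 and 86 of 875 (9.83%). With a taller truncation they were 0 of 1, the gene being mRpS22, and 1194 of 1877 (63.6%). In genes with 1 to 4 truncations and none of height 15 or more, the shares were 1 of 28 (3.57%, 0.633% to 17.7%) and 71 of 1799 (3.95%, 3.14% to 4.95%), and the intervals overlap. The tag coverage of positions without a C-to-T site is not known from the lists.

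**Figure D5:**
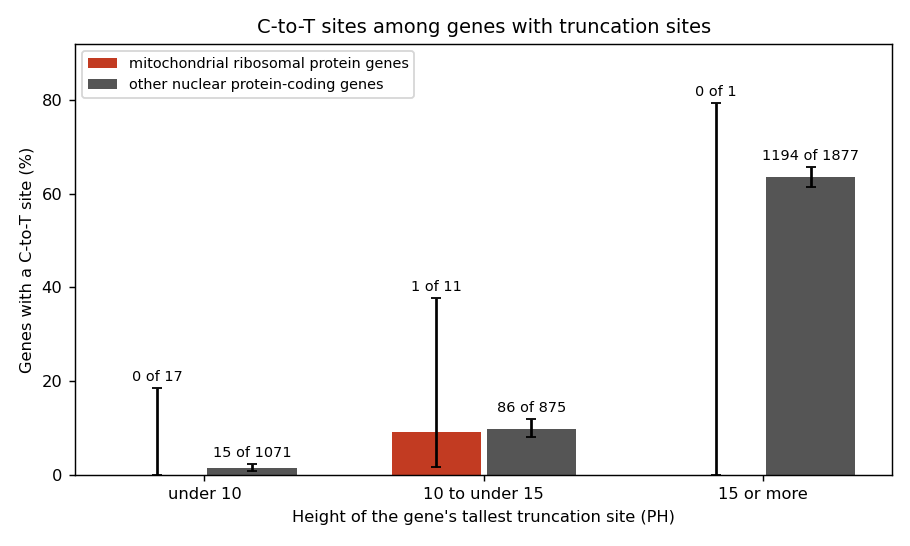
Share of genes with a C-to-T site, among genes with a truncation, by the height of the tallest truncation; red bars are mitochondrial ribosomal protein genes, grey bars other nuclear protein-coding genes, and error bars 95% Wilson intervals. The counts above the bars are 0 of 17, 1 of 11 and 0 of 1 against 15 of 1071, 86 of 875 and 1194 of 1877.

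The 2 intronic sites shared a position. In mRpL16 (chromosome X, 1890612, height 10.5) and in mRpL28 (chromosome 2L, 4975152, height 7) the truncation was at G, at the last base of intron 2, directly before exon 3. Both were in 2 IPs and were given by Novoalign alone. In other nuclear protein-coding genes 248 of 1808 intron-labelled truncations (13.7%, 12.2% to 15.4%) lay at the last base of an intron, 247 of them at G. Novoalign alone gave 90.3% of those and 33.3% of the other intronic sites. Over all parts, all 3 aligners gave 24 of the 46 sites (52.2%), against 56.2% of the whole list. Novoalign alone gave 6 (13.04%), STAR alone 5 (10.9%) and BWA alone 2 (4.35%), against 11.5%, 10.3% and 4.14% of the whole list.

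Other genes of mitochondrial translation and gene expression were read from a list of 40 names, of which 35 matched a gene. A truncation was found in 9 of these (25.7%), close to the 27.6% of all genes, and a C-to-T site in 0, beside 9.31% of all genes. They held 15 truncations with a median height of 9.83, of which 13 were coding, 1 was in a 5' UTR and 5 were at A. The elongation factor gene mEFTu2 had 3 of them, the tallest at 13.1 and in 4 IPs, and its partner mEFTs had 2, the taller at 10.2. Both tko, which encodes the small-subunit protein S12, and bonsai, a small-subunit protein of the S15 family, bear names outside the mRp scheme. tko had 1 truncation with a height of 8, and bonsai had 2, the taller at 16.8 in 3 IPs.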

How the data were processed

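Per the submitters' processing notes, the build was dm6 and the tools named, without roles, were STAR 2.4.2a, BWA, Novoalign, cutadapt 1.8 and Bowtie 1.1.2. Per the column legend deposited with the site lists, CTK called the sites from Novoalign, STAR and BWA alignments, and a site needed 2 to 4 IPs. The score the authors deposited for each site is its number of aligners. Tags, converted tags, their percent, peak height and PH0 were averaged here over the aligners that gave the site; where aligners differed in IPs, the highest number was used. Positions are 1-based.

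Genes and parts were checked against Ensembl release 115 (dm6 coordinates); other names were matched by symbol or RefSeq synonym. Of 4086 names in the truncation list 3853 matched a nuclear protein-coding gene, and of 1352 in the C-to-T list 1301. The 85 cytoplasmic ribosomal protein and 89 nuclear oxidative phosphorylation genes were taken by their symbols (RpL, RpS; ND-, SdhA to SdhD, UQCR-, COX, ATPsyn and a few single names). mRNA positions use the transcript with the longest coding sequence. Length ratios count each annotated base once, as 5' UTR, then coding, then 3' UTR. The shares expected by length differ from the shares of the summed length.

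Members and lists were chosen with earlier results of these data known. Genes described singly were those with a C-to-T site, the 10 with the most truncations, the 5 tallest sites and sites in 4 IPs; others were chosen for their part or role after their values were seen, as were the height bounds of 10 and 15. The gene names mEFG2, gatB, HisRS-m, LysRS-m and ThrRS-m found no match. Functions were tested on simulated sites. The sequence around sites and the control libraries were not analysed here. Python 3.11.15, pandas 2.3.3 and scipy 1.17.1 were used.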

Additional observations from a re-analysis of the deposited data

How the results depend on the processing

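Of 44 alternatives computed, 27 kept the value within its interval or within 1.5 times its count. Some of the 27 could not have moved it. Leaving out the tallest truncation cannot change a C-to-T count, and mRpS22 keeps a second site. No sites lay within 3 nt to be merged, and windows of 3 and 10 nt do not reach a truncation 225 nt away. The 27 are therefore not 27 separate checks. The count of genes with a truncation was 17 with sites in 3 or 4 IPs, 8 with 4 IPs, 19 with all 3 aligners and 1 with heights at or above the list median of 14.5. The C-to-T site, and with it the only gene that has one, was lost (0 left) with 4 IPs, with all 3 aligners and with converted tags at or above the list median of 8.17. The median height was 10.2 in 3 or 4 IPs, 10.4 in 4 IPs and 39.8 at or above the list median, where the T of mRpS22 is the 1 site left, so that the share of A became 0% and the coding share 100% by construction. The coding share was 66.7% of 9 sites in 4 IPs and 91.7% of 24 sites with all 3 aligners. The cause was not tested. Leaving out the mRpS22 site, chosen after seeing the data, gave a median height of 9. No paired analysis was possible because the listed values are combined over IPs, and for the same reason no replicate could be left out. Depth is known only at C-to-T sites, so an absent site is not evidence of an unmethylated mRNA.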
